A study of Mus musculus with 40 samples.

Results

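Pro-B cells of mice lacking both Tet2 and Tet3 were compared with pro-B cells of wild-type mice by RRBS, a bisulfite method that measures cytosine methylation in the CpG-rich part of the genome after a restriction digest. The comparison covered the 159862 autosomal tiles of 100 bp that had a methylation level in all 6 libraries, out of 971845 tiles listed for the series. The 3 double-knockout (DKO) libraries, numbered 10, 11 and 12, came from C57/bl mice with inducible deletion of Tet2 and Tet3 under the MB1 promoter. Libraries 10 and 11 were from males of 7 weeks and library 12 was from a female of 6 weeks. The 3 wild-type (WT) libraries, numbered 1, 2 and 3, came from C57/bl males of 8 and 6 weeks and a female of 6 weeks. The whole RRBS series held 24 libraries in 8 groups of 3, namely DKO, Tet2KO, Tet3KO and WT at the pro-B and the follicular B stage. At both stages the Tet2KO libraries were all from females, of 8, 6 and 6 weeks, and the Tet3KO libraries from 2 males and 1 female of 7 weeks, so the single knockouts differ from DKO and WT in sex or age. Of these groups, the follicular DKO and WT libraries, numbered 22 to 24 and 13 to 15, served as a second measurement of the same genotypes. Follicular DKO libraries 22 and 23 were from males of 7 weeks and library 24 from a female of 6 weeks. Follicular WT libraries 13, 14 and 15 were from males of 8 and 6 weeks and a female of 6 weeks.

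TET enzymes oxidise 5-methylcytosine to 5-hydroxymethylcytosine and further products, which leads to loss of the mark either through cell division or through base excision repair. Pro-B cells are bone marrow precursors that rearrange the immunoglobulin heavy chain locus, and enhancers used by the B lineage lose methylation as cells pass through this stage. The MB1 promoter, which belongs to the gene for the Ig-alpha chain of the B-cell receptor, is active in the B lineage from early precursors onwards. Cells before its activation therefore still have both enzymes. Whether WT mice carried the deleting transgene was not stated in the labels.

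Depth per tile was unknown, since the table holds levels without read counts. The number of tiles with a value served as a rough measure of it. This number was 556257, 447477 and 273728 in DKO libraries 10, 11 and 12, against 314437, 419928 and 425669 in WT libraries 1, 2 and 3. Over the 159862 compared tiles, 42.3% to 47.2% of values in the DKO libraries and 46.9% to 50.3% in the WT libraries were exactly 0. In the 3 follicular DKO libraries the share of zeros was 32.0% to 33.2%, and in the 3 follicular WT libraries 31.5% to 34.5%. The pro-B libraries were also more variable. At tiles of intermediate methylation the median SD between libraries of a group was 14.6 points in pro-B DKO and 13.9 points in pro-B WT, against 8.39 points in follicular DKO and 6.98 points in follicular WT. The WT libraries differ in sex or age and so are from different mice, as is DKO library 12 against libraries 10 and 11. Libraries 10 and 11 share sex and age, and no label states that they are from separate mice. Tiles carry no gene names, so the loss of Tet2 and Tet3 and the pro-B identity of the cells were not checked here.

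Methylation was slightly higher in DKO pro-B cells over the whole compared set. The mean level was 34.4%, 32.7% and 32.7% in DKO libraries 10, 11 and 12, against 31.6%, 32.3% and 32.1% in WT libraries 1, 2 and 3. All DKO libraries lay above all WT libraries, with a difference of 1.29 points (SE 0.609, n = 3 each). Without DKO library 10 the difference was 0.720 points. The two-sided exact permutation p was 0.1, the smallest that 3 against 3 libraries can give. The median difference per tile was 0. Differences of at least 20 points were found upwards at 5254 tiles and downwards at 1967 tiles, or 3.29% and 1.23% of the set, before any test. All DKO libraries lay above all WT libraries at 3.64% of the tiles and below them at 1.41%. Both conditions together were met by 1931 higher tiles (1.21%) and 467 lower tiles (0.292%).

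**Figure D1:**
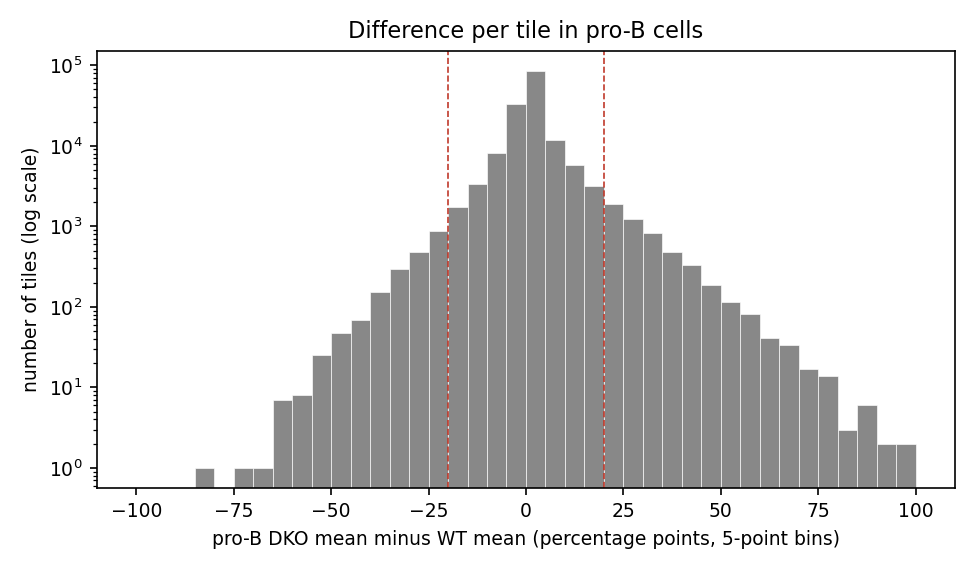
Number of tiles (log scale) by the difference between the pro-B DKO mean and the pro-B WT mean, in bins of 5 percentage points, over the 159862 compared tiles. Dashed lines mark 20 points in either direction, beyond which 5254 tiles lay on the higher side and 1967 on the lower side.

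The difference was largest at tiles of intermediate methylation. Tiles were put into classes by their mean level in follicular WT cells, which were not part of the comparison, and 156972 tiles could be classed. At the 17314 tiles with a follicular WT level of 20 to 80%, DKO libraries 10, 11 and 12 stood at 57.3%, 48.0% and 48.1%, against 43.3%, 47.4% and 45.7% in WT libraries 1, 2 and 3. The groups did not overlap (two-sided exact permutation p = 0.1), and the difference was 5.66 points (SE 3.31, n = 3 each). Library 10, the DKO library with most tiles, carried much of it. Without library 10 the DKO mean was 48.0%, against 45.5% in WT, a difference of 2.56 points. Among male mice the difference was 7.31 points (libraries 10 and 11 against 1 and 2), and in the single female pair it was 2.35 points. Among mice of 6 weeks, DKO library 12 stood at 48.1% and WT libraries 2 and 3 at a mean of 46.6%, a difference of 1.53 points. The part played by library depth in these differences was not tested.

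At both ends of the methylation scale the genotypes lay close together. Among the 81468 tiles under 5% in follicular WT cells, the DKO libraries stood at 1.21%, 0.974% and 1.11%, against 0.708%, 0.746% and 0.735% in WT. These levels did not overlap, and the difference was 0.367 points (SE 0.0691, exact permutation p = 0.1, n = 3 each). At the 13979 tiles of 5 to 20%, DKO stood at 10.6% ± 1.68 and WT at 7.93% ± 0.334 (SD, n = 3 each), again without overlap. The largest gap of the 6 classes was at the 8165 tiles of 20 to 50%, with DKO at 33.2% ± 5.81 and WT at 26.6% ± 1.81 (exact permutation p = 0.1, n = 3 each). From 50% upwards at least 1 DKO library lay within the WT range. The difference was 4.83 points at 50 to 80% (exact permutation p = 0.2), 1.08 points at 80 to 95% and 0.450 points at 95% and over (exact permutation p = 0.3 for both, n = 3 each).

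**Figure D2:**
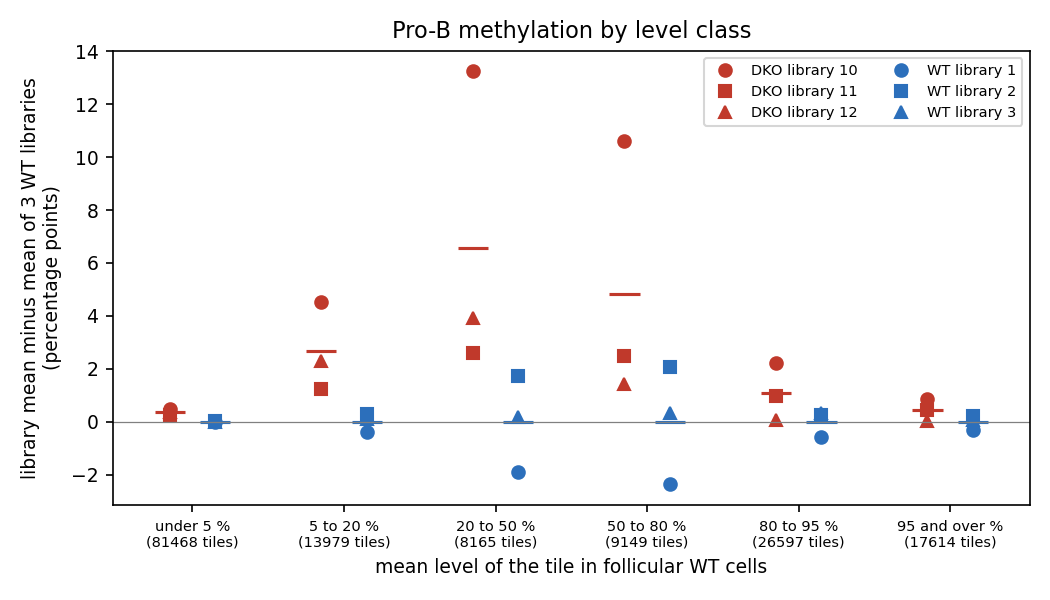
Mean level of each pro-B library minus the mean of the 3 WT libraries, in percentage points, for 6 classes of tiles set by their level in follicular WT cells. Points are libraries (DKO red, WT blue) and bars are group means. DKO library 10 lies highest in every class, and the gap between the groups is widest at 20 to 50%.

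The higher level at intermediate tiles was seen on every autosome. The DKO mean was higher than the WT mean on 19 of 19 chromosomes, by 4.39 points on chromosome 12 up to 7.30 points on chromosome 15. On 12 chromosomes all DKO libraries lay above all WT libraries. Chromosomes share the same libraries, so they are no independent replicates. It was also seen in both dense and sparse surroundings. At intermediate tiles with 0 to 3 listed tiles within 1000 bp on either side, DKO stood at 57.1% ± 5.36 and WT at 50.9% ± 1.89. With 12 to 20 such neighbours, as in CpG-rich stretches, DKO stood at 41.8% ± 5.68 and WT at 37.2% ± 1.86 (SD, n = 3 each). The groups did not overlap in the first case (exact permutation p = 0.1) and did in the second (exact permutation p = 0.3).

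Single tiles were then tested with limma, and gains far outnumbered losses. In DKO pro-B cells 241 tiles (0.151% of 159862) were more methylated and 32 (0.02%) less methylated, together 273 tiles (0.171%), at an adjusted p under 0.05 and a difference of at least 20 points. An unadjusted p under 0.05 was reached by 13043 tiles, or 8.16%. All DKO libraries lay above all WT libraries at each of the 241 tiles and below them at each of the 32. The median difference was 50.3 points at the higher tiles, ranging from 20.1 to 97.4, and -29.8 points at the lower tiles. The same libraries chose the tiles and gave these sizes, which are therefore descriptive.

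The calls rested on the choice of libraries that supply the spread. The fit took it from all 24 libraries, and the follicular ones vary less than the pro-B ones. With the spread taken from the 12 pro-B libraries, 4 tiles were higher and 0 lower, with 6616 tiles at an unadjusted p under 0.05. With only the 6 compared libraries, which leave 4 residual degrees of freedom, 2 tiles were higher and 0 lower, with 4406 at an unadjusted p under 0.05. Each of these 6 tiles was also among the 241. Leaving out a library moved the counts upwards, but partly to other tiles. Of the 241 higher tiles 145 to 200 were called again, and of the 32 lower tiles 16 to 25. Without DKO library 10 limma called 279 tiles higher and 232 lower, so that more lower tiles were called and the higher tiles made up 54.6% of the calls, against 88.3% with all libraries. Without DKO library 11 or 12 the counts were 553 and 278 higher with 135 and 71 lower. Without WT library 1, 2 or 3 they were 332, 521 and 487 higher with 47, 65 and 64 lower.

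The 6 tiles that passed within the pro-B stage are given here. Passing needed close libraries within the groups as well as a difference, so they are not simply the largest differences. They were named after their values were seen, and positions are on mouse build mm9. At chromosome 7, 118067001 to 118067100, the level was 98%, 100% and 100% in DKO libraries, against 1.54%, 0% and 5.06% in WT libraries. At chromosome 7, 139883701 to 139883800, it was 100%, 89.7% and 100% in DKO, against 5.26%, 0% and 0% in WT. Both tiles were nearly fully methylated in DKO and nearly unmethylated in WT. Chromosome 14, 34003201 to 34003300, behaved alike, with 91.6%, 100% and 91.5% in DKO, against 12.7%, 0% and 7.81% in WT. The others were partly methylated in WT. Chromosome 15, 25463001 to 25463100, stood at 100% in all DKO libraries, against 39.1%, 31.3% and 34.1% in WT. Chromosome 19, 46943201 to 46943300, stood at 93.3%, 86.4% and 90.5% in DKO, against 38.5%, 34.0% and 41.3% in WT. At chromosome 10, 39933301 to 39933400, the values were 100% in all DKO libraries, against 80%, 76.5% and 81.8% in WT, a difference of 20.6 points. In follicular cells DKO minus WT was 3.40 points at this last tile and 33.3 to 84.1 points at the others.

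Called tiles of 1 direction within 500 bp of each other were joined into regions. The 241 higher tiles formed 220 regions, of which 19 held 2 or 3 called tiles, while the 32 lower tiles formed 32 regions of a single tile each. The 12 higher regions of at least 2 tiles with the largest difference and no overlap between groups are described here, with levels averaged over the called tiles of each region. None of the 12 kept at least 2 called tiles when the spread came from the pro-B libraries alone. Leaving out some of the compared libraries in turn brought 5 of the 12 under 2 called tiles, namely both regions on chromosome 2, both on chromosome 4 and the one at 44306901 of chromosome 11.

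Regions nearly unmethylated in WT pro-B cells led the list. At chromosome 7, 139883701 to 139884000, the level was 83.3%, 91.7% and 100% in DKO libraries 10, 11 and 12, against 2.63%, 0% and 0% in WT libraries 1, 2 and 3 (90.8 points, limma adjusted p of its tiles from 1.24e-07 to 7.03e-05). Chromosome 7, 118067001 to 118067300, with 3 called tiles, stood at 89.0%, 94.3% and 86.7% in DKO, against 3.76%, 0% and 6.29% in WT. At chromosome 14, 34003001 to 34003300, also with 3 called tiles, DKO stood at 80.7%, 68.3% and 86.1%, against 4.81%, 4.92% and 5.27% in WT. In these regions every DKO library was mostly methylated and every WT library nearly unmethylated.

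Chromosome 11, 44306901 to 44307200, stood at 91.6%, 83.0% and 72.0% in DKO, against 1.87%, 15.1% and 13.8% in WT. At chromosome 2, 32511601 to 32511800, the level was 65.1%, 79.4% and 94.0% in DKO, against 8.07%, 10.2% and 14.3% in WT. Chromosome 18, 50206001 to 50206200, stood at 79.9%, 91.7% and 69.8% in DKO, against 0%, 0% and 11.3% in WT. DKO libraries differed more among themselves here than the WT libraries did. The widest case was chromosome 13, 55628701 to 55628900, with 96.2%, 57.5% and 47.6% in DKO, against 1.86%, 0% and 2.74% in WT. Chromosome 2, 4454101 to 4454300, stood at 87.8%, 60% and 83.3% in DKO, against 0%, 14.4% and 0% in WT.

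The other regions had partial methylation in at least 1 WT library. At chromosome 4, 94742501 to 94742700, the level was 94.7%, 97.0% and 100% in DKO, against 0%, 44.5% and 0% in WT. At chromosome 4, 137496101 to 137496300, it was 98.8%, 60% and 100% in DKO, against 36.8%, 23% and 0% in WT. The WT libraries of both regions differed widely, from 0 to partly methylated. The WT libraries were closer together at chromosome 19, 46943101 to 46943300, with 93.8%, 92.5% and 95.2% in DKO, against 19.3%, 45.1% and 25.2% in WT. Chromosome 11, 119925701 to 119925900, stood at 88.8%, 91.7% and 100% in DKO, against 23.2%, 43.6% and 22.1% in WT. Over the 12 regions the difference ran from 63.9 to 90.8 points, and the largest limma adjusted p of a tile was 0.0461.

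Follicular libraries gave a second reading of these regions. Their DKO minus WT difference took no part in choosing them, but their spread entered the fit that called the tiles. Tiles with close follicular libraries were thus more readily called, which also makes an order without overlap more likely there. In all 12 regions the 3 follicular DKO libraries lay above the 3 follicular WT libraries, by 18.9 to 81.1 points, an order found at 6.97% of all tiles. The follicular difference was smaller than the pro-B difference, on which the regions were chosen, in 11 of the 12. At chromosome 11, 44306901 to 44307200, follicular DKO stood at 85.0% ± 4.77 and follicular WT at 3.91% ± 2.70 (SD, n = 3 each), the 1 region in which it was not smaller. At chromosome 7, 118067001 to 118067300, the follicular levels were 80.7% ± 6.31 in DKO and 8.43% ± 0.894 in WT. The leading region, chromosome 7, 139883701 to 139884000, stood at 56.6% ± 5.49 in follicular DKO and 15.6% ± 3.93 in follicular WT. The smallest follicular differences were those of the 2 regions on chromosome 4. Chromosome 4, 94742501 to 94742700, stood at 75.6% ± 8.95 in follicular DKO and 56.7% ± 8.07 in follicular WT, and chromosome 4, 137496101 to 137496300, at 70.8% ± 5.98 and 49.5% ± 8.30 (SD, n = 3 each). The sexes and ages of the follicular libraries match those of the pro-B libraries, so both stages may have been sampled from the same mice.

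**Figure D3:**
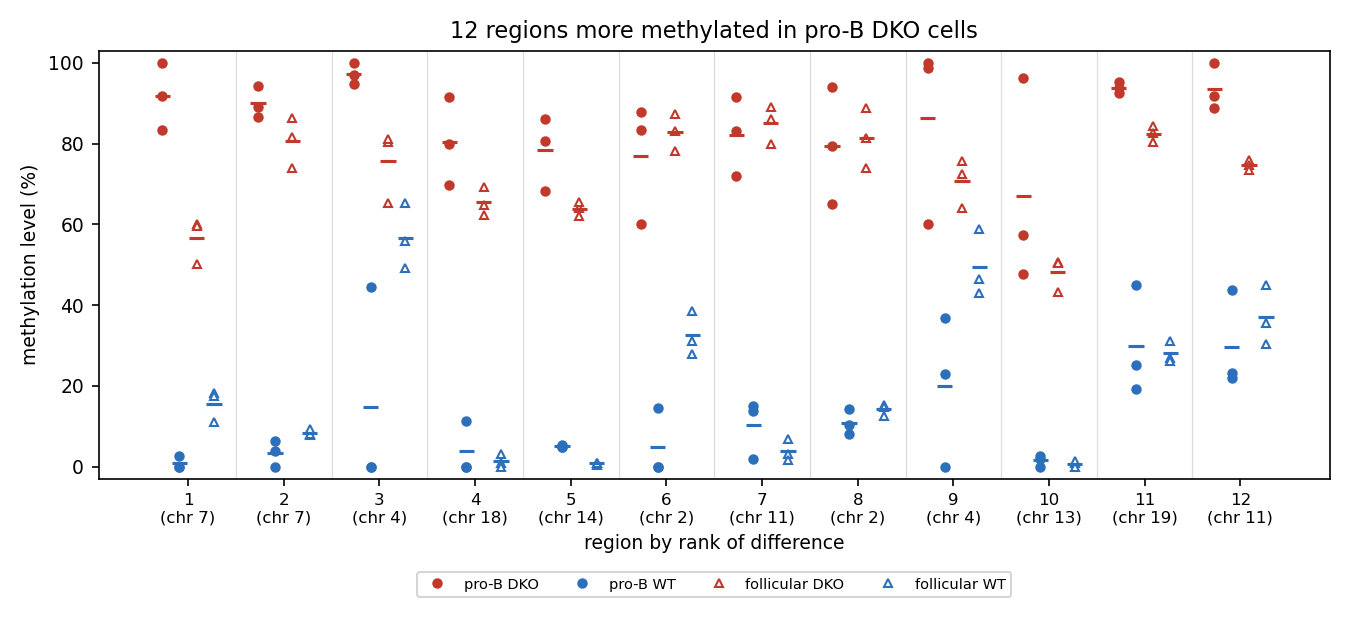
Methylation level in percent of the 12 named regions, numbered by the size of the pro-B difference, in pro-B DKO and WT libraries (filled circles) and follicular DKO and WT libraries (open triangles), 3 libraries per group with bars at the group mean. DKO libraries lie above WT libraries of the same stage in all 12 regions.

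Single knockouts of pro-B cells stood mostly between DKO and WT in these regions. The Tet2KO mean was between the DKO and WT means in 11 of the 12 regions, and that of Tet3KO libraries 7 and 9, where they had values, in 8. Among all compared tiles with values in these libraries, the shares were 26.4% for Tet2KO and 16.6% for Tet3KO. The regions were chosen for a large gap between DKO and WT, which alone places most other groups between the 2 means. Chromosome 19, 46943101 to 46943300, stood at 93.9% ± 1.35 in DKO, 60% ± 4.2 in Tet2KO and 29.9% ± 13.5 in WT (SD, n = 3 each), with Tet3KO libraries 7 and 9 at 68.0% and 82.1%. Chromosome 7, 139883701 to 139884000, was the region in which Tet2KO did not lie between them. It stood at 91.7% ± 8.33 in DKO, at 0 in all 3 Tet2KO libraries and both Tet3KO libraries, and at 0.877% ± 1.52 in WT (SD, n = 3 each). The Tet3KO mean was also outside the range at chromosome 4, 137496101 to 137496300, where library 9, the only one with a value, stood at 100%, and slightly under the WT mean at chromosome 2, 4454101 to 4454300, and at chromosome 11, 119925701 to 119925900. Tet3KO library 8 had a value at only 6 of the 241 higher tiles and is left out of these comparisons.

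Over all higher tiles, the difference was also present in follicular cells. It was smaller there, but the tiles were chosen on the pro-B difference, which alone favours that order. At the 231 of 241 tiles with a value in all 6 follicular DKO and WT libraries, follicular DKO libraries 22, 23 and 24 stood at 72.4%, 67.8% and 71.3%, against 46.9%, 45.5% and 45.3% in WT libraries 13, 14 and 15. The groups did not overlap, and the difference was 24.6 points (SE 1.48, exact permutation p = 0.1, n = 3 each). Over all 151559 tiles with such values the same difference was 1.22 points (SE 0.238). Single tiles varied widely, with quartiles of 4.48 and 43.7 points and 51 tiles within 5 points of 0. A follicular difference of at least 20 points was found at 104 tiles (45.0%), against 1.42% of all tiles. All follicular DKO libraries lay above all follicular WT libraries at 140 of the 231 tiles (60.6%), against 6.97% of all tiles. The reverse order was found at 1 tile. These shares are not free of the choice of tiles, since the follicular spread entered the fit that called them. The shares of all tiles are also not matched for level. In follicular WT cells 60.8% of all tiles were under 20%, against 30.5% of the higher tiles. Higher tiles chosen without pro-B DKO library 10 showed a follicular difference of 19.1 points over 263 tiles.

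In a test of follicular DKO against follicular WT, 200 of 157604 tiles (0.127%) were higher in DKO and 2 lower (0.00127%). The 2 lists of higher tiles had 58 in common, or 24.3% of the 239 pro-B tiles that could be tested in follicular cells and 29.0% of the follicular list. The 2 contrasts share no library, but both use the spread of all 24. Read in the other direction, the 200 tiles called in follicular cells were chosen without the pro-B DKO minus WT difference. The pro-B spread still entered that choice, which favours tiles with close pro-B libraries. At these tiles pro-B DKO libraries 10, 11 and 12 stood at 64.9%, 59.6% and 58.1%, against 30%, 31.7% and 31.5% in pro-B WT libraries. That difference was 29.8 points (SE 2.15, exact permutation p = 0.1, n = 3 each). The pro-B DKO mean was the higher one at 180 of the 200 tiles. At 115 (57.5%) all pro-B DKO libraries lay above all pro-B WT libraries, against 3.64% of all tiles and 9.19% of the intermediate tiles.

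The DKO difference was also tested against itself between the stages, with an interaction term in limma over 157604 tiles. DKO minus WT was more positive in pro-B cells at 10 tiles (0.00635%) and more negative there at 13 (0.00825%), at an adjusted p under 0.05 and at least 20 points. The difference was larger in size in pro-B cells at 9 of the 10 and at 4 of the 13, and larger in follicular cells at the others. An unadjusted p under 0.05 was reached by 5.19% of the tiles. Most tiles called in 1 stage only were thus not shown to differ between stages.

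At the higher tiles the single knockouts of pro-B cells again took a middle place. The 151 higher tiles with a value in every library but Tet3KO library 8 had a mean of 77.0%, 72.2% and 74.8% in pro-B DKO. Tet2KO libraries 4, 5 and 6 stood at 44.8%, 46.4% and 42.9%, and Tet3KO libraries 7 and 9 at 45.0% and 47.4%. The WT libraries stood at 22.7%, 27.4% and 26.7%. No library of a single knockout reached the DKO range or fell into the WT range. These tiles were chosen as low in WT and high in DKO, which alone draws other groups towards the middle. In follicular cells the same tiles stood at 65.4% ± 2.77 in DKO, 42.1% ± 0.647 in Tet2KO, 48.5% ± 1.74 in Tet3KO and 37.2% ± 0.603 in WT (SD, n = 3 each).

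**Figure D4:**
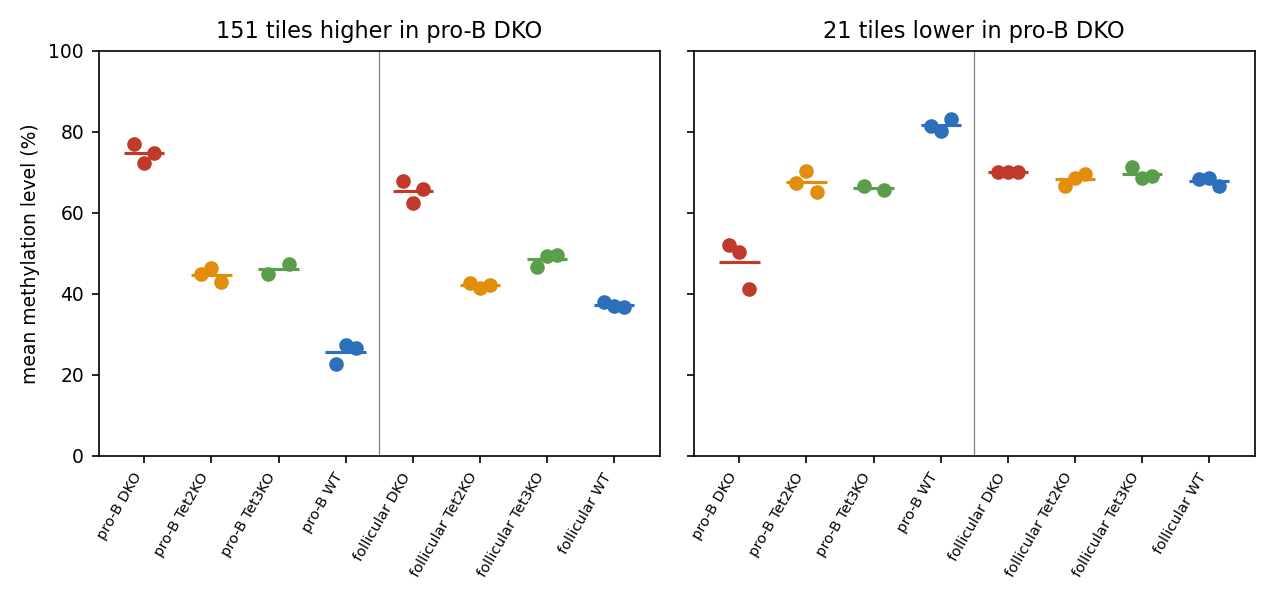
Mean methylation level in percent of each library at tiles higher (left) and lower (right) in pro-B DKO cells, for pro-B and follicular groups, with points for libraries and bars for group means. At the 151 higher tiles follicular DKO libraries also lie above follicular WT libraries, while at the 21 lower tiles the follicular groups lie between 66.6% and 71.3%.

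The WT level of the lower tiles was mostly at the top of the scale, with 25 of 32 at 80% or more. Exactly 100% in all 3 WT libraries was found at 12, or 37.5% against 4.74% of all tiles. The call itself favours such levels. A fall of at least 20 points needs a WT mean of at least 20%, and 62.1% of all tiles were under 20%. WT libraries that are all at 100% also add no spread, which makes a call easier. At chromosome 1, 37144501 to 37144600, the tile with the smallest adjusted p of the 12 named lower tiles, the level was 35.7%, 50% and 50% in DKO and 100% in all WT libraries (limma adjusted p = 0.000141). At chromosome 4, 154240601 to 154240700, it was 21.1%, 35.7% and 0% in DKO and 100% in all WT libraries. Chromosome 17, 8013001 to 8013100, stood at 61.4%, 51.8% and 59.3% in DKO and at 100% in all WT libraries. A WT level of 100% in all libraries was found in 7 of the 12. Among those with a lower WT level, chromosome 12, 95279101 to 95279200, stood at 55.6%, 51.4% and 45.5% in DKO, against 67.5%, 79.2% and 68.8% in WT. At chromosome 5, 108979501 to 108979600, the level was 14.1%, 4.25% and 0% in DKO, against 39.2%, 38.5% and 63.6% in WT. Without DKO library 12, 4 of the 12 tiles were no longer called, those of chromosomes 12 and 5 among them.

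In follicular cells the lower tiles differed between genotypes by about as much as tiles in general. At the 31 lower tiles with all values, follicular DKO libraries stood at 75.4%, 75.1% and 75.3%, against 73.4%, 75% and 73.8% in follicular WT. The difference was 1.23 points upwards (SE 0.488, exact permutation p = 0.1, n = 3 each), against 1.22 points over all tiles. All follicular DKO libraries lay below all WT libraries at 0 of the 31 tiles, and above them at 4. Over all tiles these shares were 2.44% below and 6.97% above, so 0 of 31 cannot be told from the general share. Of the 12 named lower tiles, that of chromosome 3, 89383001 to 89383100, had all follicular DKO libraries above all follicular WT libraries. It stood at 85.5% ± 3.05 in follicular DKO and 82.1% ± 1.59 in follicular WT (SD, n = 3 each). In pro-B cells it stood at 41.6%, 64.8% and 20.8% in DKO, against 100%, 76.8% and 90.3% in WT. The 222 lower tiles with follicular values that were called without pro-B DKO library 10 had a follicular difference of 0.344 points.

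Higher tiles lay in sparser surroundings than tiles in general and were spread over the genome. They had a median of 4 listed tiles within 1000 bp, and so did the lower tiles, against 8 for all compared tiles. Level differs with surroundings too, with a WT mean of 66.4% at 0 to 3 such neighbours and 8.52% at 12 to 20. The share of higher tiles was 0.295% and 0.0352% in these 2 ranges. Among intermediate tiles it was 0.676%, 0.721%, 0.453% and 0.475% at 0 to 3, 4 to 7, 8 to 11 and 12 to 20 neighbours. A part of surroundings apart from level was not tested. Of the 239 higher tiles classed by follicular WT level, 45.2% were at 20 to 80%, against 11% of all tiles, and 30.5% were under 20%, against 60.8% of all tiles. In pro-B cells themselves 113 of the 241 had a WT mean under 20% and 27 were at 0 in all WT libraries, while 151 had a DKO mean of 80% or more. Every autosome held higher tiles, from 4 on chromosome 19 to 28 on chromosome 5. The share of compared tiles that were higher ran from 0.0779% on chromosome 19 to 0.254% on chromosome 5.

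Neighbouring tiles that were not called were also more methylated in DKO. At the 139 compared tiles next to a higher tile, DKO libraries 10, 11 and 12 stood at 65.0%, 54.6% and 57.2%, against 40.2%, 43.5% and 41.7% in WT (17.1 points, exact permutation p = 0.1, n = 3 each). Adjacent tiles can be covered by the same reads. At 300 to 500 bp the 61 tiles stood at 28.8%, 25.7% and 28.3% in DKO, against 18.3%, 19.7% and 21.6% in WT. This difference of 7.78 points was also without overlap (exact permutation p = 0.1, n = 3 each). At 600 to 1000 bp it was 3.98 points over 50 tiles, and at 1100 to 2000 bp 1.33 points over 102 tiles with overlap (exact permutation p = 0.8). The 50 tiles at 200 bp differed by 6.00 points with overlap (exact permutation p = 0.3). In follicular cells the differences at 100, 200 and 300 to 500 bp were 15.9, 13.2 and 8.10 points. Around the lower tiles no such pattern was seen up to 2000 bp, with differences of 0.444 points at 100 bp over 24 tiles and -0.725 points at 300 to 500 bp over 20 tiles (exact permutation p = 0.9 and 0.8). At 2100 to 5000 bp DKO was higher by 2.17 points over 183 tiles around higher tiles, with overlap (exact permutation p = 0.2). Around lower tiles it was higher there by 2.58 points over 46 tiles, without overlap (exact permutation p = 0.1).

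**Figure D5:**
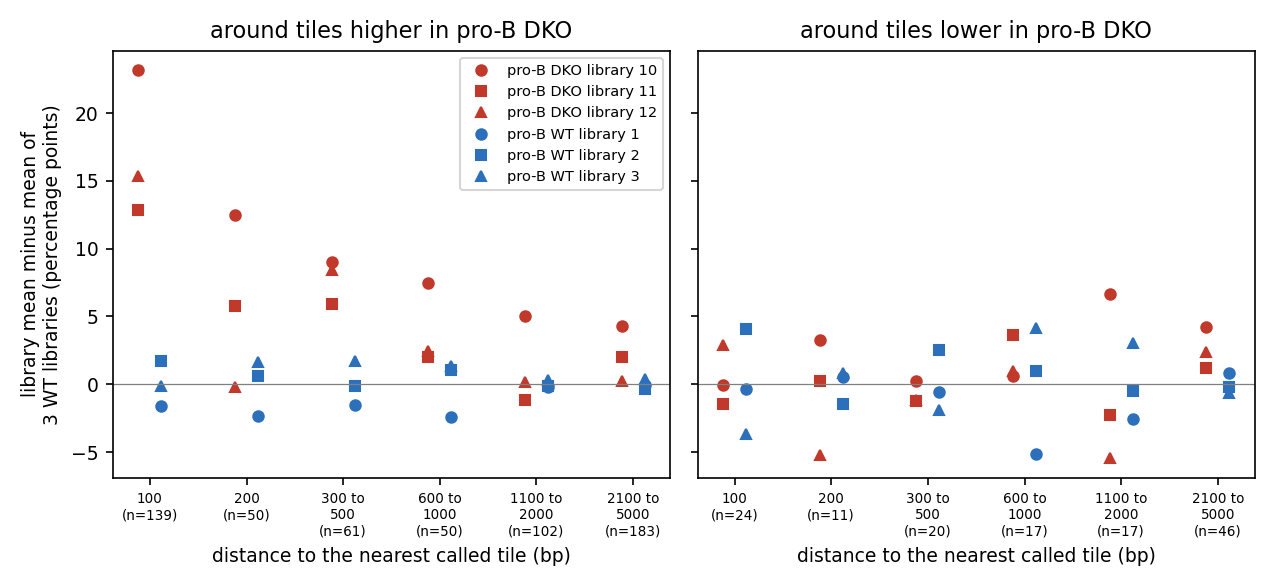
Mean level of each pro-B library minus the mean of the 3 WT libraries, in percentage points, at tiles that were not called, by distance to the nearest tile called higher (left) or lower (right) in DKO. Around higher tiles all 3 DKO libraries lie above the 3 WT libraries at 100 bp and come near them at 1100 to 2000 bp, where library 10 alone stays above the WT libraries.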

How the data were processed

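RRBS tables of 24 libraries were used; 16 RNA samples were not analysed here. What the authors deposited is a methylated fraction per 100 bp tile and library, without coverage, and 175118 of 971845 tiles hold no value. Trim Galore and methylKit, per the submitters' processing notes, were used upstream; the aligner, coverage minimum and conversion rate are not given in the sources used here. Coordinates were taken as mm9, which those notes name and which fits a chromosome 1 reaching 197193600.

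Fractions were multiplied by 100. Limma 3.58.1 in R 4.3.3 was fitted per tile with 8 groups over 24 libraries, with a trended prior, to tiles with values in all 6 compared libraries; missing values elsewhere were left missing. Calls needed 20 points and a two-sided p under 0.05 after Benjamini-Hochberg adjustment; the planned count model could not be fitted without read counts. Library means of 2 groups were set against each other with exact permutation tests, two-sided (scipy 1.17.1). Named regions were the 12 per direction with the largest mean difference among regions of at least 2 called tiles without overlap, filled up by single tiles ranked by adjusted p. The fit was run on simulated data with the same spread for all groups at a tile. That run therefore does not cover the unequal spread of pro-B and follicular libraries. Tiles, lists and tests were chosen with earlier results of these data known. No annotation of mm9 was used, so regions carry no gene names.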

Additional observations from a re-analysis of the deposited data

Results flagged for a closer look

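The DKO difference itself differed between the stages at 23 of 157604 tiles, by an interaction term in limma (adjusted p under 0.05 and at least 20 points). DKO minus WT was more positive in pro-B cells at 10 tiles (0.00635%) and more negative at 13 (0.00825%), and 8187 tiles (5.19%) had an unadjusted p under 0.05. Of the 10, 7 were among the tiles higher in pro-B DKO, and of the 13, 3 were among the lower ones. The tiles below are the 3 with the smallest adjusted p in each direction.

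Chromosome 7, 139883701 to 139883800, stood at 96.6% ± 5.97 in pro-B DKO and 1.75% ± 3.04 in pro-B WT, and at 33.3% ± 11.5 in follicular DKO and 0 in follicular WT (SD, n = 3 each, limma adjusted p = 0.00102). Chromosome 7, 137321201 to 137321300, stood at 99% ± 1.73 in pro-B DKO and 82.6% ± 3.57 in pro-B WT, and at 91.4% ± 3.53 in follicular DKO and 95.1% ± 2.52 in follicular WT (SD, n = 3 each). Chromosome 19, 42100701 to 42100800, stood at 43.0% ± 6.83 in pro-B DKO and 0 in pro-B WT, and at 7.53% ± 5.33 in follicular DKO and 16.7% ± 7.47 in follicular WT (SD, n = 3 each). In the other direction, chromosome 3, 51440901 to 51441000, was at 0 in all pro-B DKO and WT libraries, and stood at 24% in follicular DKO (2 libraries) and 0 in follicular WT. Chromosome 11, 96166001 to 96166100, stood at 0 in pro-B DKO and 0.794% in pro-B WT, and at 19.9% in follicular DKO (2 libraries) and 0 in follicular WT. Chromosome 15, 58838001 to 58838100, stood at 97.2% ± 2.47 in pro-B DKO and 92.2% ± 13.4 in pro-B WT, and at 96.8% ± 1.59 in follicular DKO and 21.4% ± 4.08 in follicular WT (SD, n = 3 each, limma adjusted p = 0.000252).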

How the results depend on the processing

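For the 24 named regions, chosen without overlap between groups, leaving out a library could not reverse the direction. Most other settings changed the fit but not the difference itself, so they did not test its direction. The direction of the mean differences held, except that the median difference over all tiles was 0. Groups did not overlap in these means, so leaving out a library could not reverse them either. The 241 higher and 32 lower calls did not hold in number. They were 4 and 0 with 12 pro-B libraries in the fit, 2 and 0 with only 6, 1072 and 326 when each group needed values in only 2 libraries, and 63 and 6 at an adjusted p under 0.01. The lower count was 54 with libraries centred, 55 without invariant tiles, 16 at 30 points and 56 at 10 points. Leaving out 1 of the 6 compared libraries gave 278 to 553 higher and 47 to 232 lower tiles. Of the 241 and the 32, 145 to 200 and 16 to 25 stayed called in these fits, and 160 and 19 on the logit scale. The mean difference over all tiles was 0.720 to 1.58 points without 1 of these libraries, lowest without DKO library 10, and that at intermediate tiles 2.56 to 7.22 points. The follicular difference at higher tiles was 67.6 points at the 2 tiles chosen on 6 libraries, 29.6 points at tiles chosen at 30 points and 19.1 points at tiles chosen without pro-B DKO library 10. At lower tiles it was 0.344 points with that choice and 2.08 points without tiles at 0 or 100% in all libraries of a group; on 6 libraries no lower tile was called. The choice without library 10 and that without tiles at 0 or 100% were added after seeing the data. Tiles with DKO minus WT more positive in pro-B than in follicular cells were 5 on the logit scale, 3 when centred, 2 with only the 4 groups fitted and 6 with sex as a covariate, and 8 to 66 without a library; those with it more negative were 8 on the logit scale, 8 with the 4 groups, and 12 to 79 without a library (66 more positive without pro-B WT library 2, 79 more negative without pro-B DKO library 10). Apart from settings that change the number of tiles or libraries, the cause was not tested. No paired analysis was possible because the compared groups share no replicate number; sex and age match between the stages but do not tie each pro-B library to 1 follicular library, since DKO libraries 10, 11, 22 and 23 are all from 7-week-old males. Unknown depth limits levels of 0 and 100%, which can rest on few reads.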
